A study of Mus musculus with 18 samples.

Results

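The non-additive genes described here are those whose response to 12 h of tunicamycin differed between cells with and without induced LIP. They were found by the interaction, defined as the doxycycline difference at 12 h of tunicamycin minus the doxycycline difference before tunicamycin, tested in limma with a Benjamini-Hochberg adjusted p under 0.05. Of 19938 genes measured by a probe set with a single symbol, 367 passed (1.84%), 198 with an interaction above 0 (0.993%) and 169 with an interaction below 0 (0.848%). At an unadjusted p under 0.05 the number was 2461. The members nearest the threshold were Dennd6b, Mro and Ddah1 just inside it (adjusted p = 0.0493 each) and Nop16 just outside it (adjusted p = 0.0501).

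Expression was measured in mouse B16 F10.9-4 cells, a melanoma-derived line, in 3 independent experiments with 1 array per group in each. Replicate numbers were read as experiments 1, 2 and 3, which the labels do not state. Biotin-labelled cDNA from total RNA was read on one-colour Affymetrix arrays. The 4 groups used were vehicle, taken at 0 h, doxycycline ("doxy") without tunicamycin, also taken at 0 h, tunicamycin ("Tm") for 12 h without doxycycline, and doxycycline followed by tunicamycin for 12 h. Doxycycline was given before tunicamycin to overexpress LIP. The 2 groups with 5 h of tunicamycin entered the estimate of the spread and are given where they bear on a member. All groups are the same cell line, and the sources used here do not name the promoter that drives LIP. Untreated cells at 12 h and cells lacking the LIP construct were not used here. Hours in culture therefore cannot be told apart from tunicamycin, nor can doxycycline as a drug be told apart from LIP. Effects of either that add on the log2 scale cancel in the interaction, and effects that change with the other agent do not. Levels are the authors' log2 intensities after RMA, and each set of 3 values below is in the order of experiments 1, 2 and 3. Differences are log2 values, each with a standard error (SE) and an adjusted p over all genes, and the number of arrays limits their precision.

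LIP is the short isoform of the transcription factor C/EBPβ, made from the same mRNA as the longer isoforms. It keeps the DNA-binding and dimerization part and lacks most of the activating part, so it can occupy C/EBP sites or pair with other C/EBP proteins, such as CHOP, without activating in the way the long isoform does. Tunicamycin blocks the first step of N-linked glycosylation, and unfolded protein then builds up in the endoplasmic reticulum (ER). The unfolded protein response that follows has 3 sensors: IRE1, which splices the mRNA of Xbp1, ATF6, a membrane-bound factor released by cleavage, and PERK, which slows translation and favours ATF4 and its target CHOP. ATF6 and spliced XBP1 are known for switching on ER chaperones, and ATF4 and CHOP for amino acid, oxidative and death-related genes. A gene is additive on the log2 scale when LIP multiplies its level by the same factor with and without tunicamycin, and the genes below are those where that factor differed.

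The size of the non-additivity was small for most members. The median of the absolute interaction was 0.42 over the 367 genes and the smallest was 0.23, against a median interaction of -0.016 over all genes tested. It was at least 0.5 in 118 members (60 above 0 and 58 below) and at least 1, a 2-fold departure, in 13 (5 above 0 and 8 below). The arrays with both agents lay above the other 9 of the 4 groups in 133 members (5.38% of all genes tested did so) and below them in 78 (6.76%). The arrays with tunicamycin alone lay above the 9 others in 83 members (3.32%) and below them in 55 (3.93%). The contrast that chose the members used these arrays, so the counts only describe them. Levels were checked against 1194 olfactory and vomeronasal receptor genes, used as a stand-in for silent genes, whose 95th percentile was 6.07: 7 members stayed below it in all 4 groups and another 12 crossed it between groups.

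Melanocyte markers were present: all 7 lay above that percentile, with mean levels of 6.73 to 13.73, and 2 of them, Sox10 and Pmel, are themselves non-additive members. Of other cell types, 3 of 5 fibroblast, 2 of 4 leukocyte, 1 of 3 endothelial and 0 of 3 keratinocyte markers lay above it. Of these 15, 0 passed the interaction threshold in limma, or an unadjusted p under 0.05. Over all genes tested, 1.84% passed and 2461 of 19938 had such a p. With so few markers, 0 of 15 cannot be told apart from those shares. The highest group means of these markers were 8.22 (fibroblast), 8.36 (leukocyte), 6.17 (endothelial) and 5.98 (keratinocyte). The first 2 lay above the melanocyte marker Tyr, whose group means were 6.73 to 7.27. In these bulk samples, fewer cells with a given transcript and less of it per cell cannot be told apart.

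The count depended on which arrays were used. Fewer arrays per group lower the precision, so a call can be lost without a smaller interaction. Without experiment 1 the count was 47, without experiment 2 it was 380 and without experiment 3 it was 39. Leaving out single arrays gave 214 without the doxycycline array of experiment 1, 224 without the array with both agents of experiment 3, and 231 and 234 without the vehicle arrays of experiments 1 and 3. It was 238 and 239 without the doxycycline and the tunicamycin 12 h arrays of experiment 3. Of the 72 genes past the threshold that the rule for named genes picked, 17 kept their call in every one of these runs and in each other setting that tested them: Ogn, Itga5, Vdr, Gata3, Ptprd, Gsta3, Tnfrsf19, Hoxa11, Jag1, Dthd1, Hmox1, Nat8f5, Casp4, Nat8, Lcn2, Ptgir and Aldh1l2. The 22 that lost it without at least 1 single array were Ankle1, Cbr2, Cdc25c, Cdk2, Dnajb9, Epha2, Espl1, Magt1, Mcoln1, Nes, Npc2, Nsdhl, Pgm3, Plk1, Rab27a, Selenos, Slc30a7, Slc6a9, Sox10, Tagln, Tmsb4x and Vcl. The run without the dimmest 30% of genes held 69 of the 72, and Ogn, Dthd1 and Nat8f5 were too dim to be tested in it.

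Plotting the tunicamycin response of every gene without LIP against its response with LIP showed where the members lay. Tunicamycin changed 5516 genes without doxycycline (27.7%) and 5971 with it (29.9%), so most genes that responded did so without a detected interaction. The members fell into 7 shapes, named by the calls of those 2 responses. In 84 genes the rise with tunicamycin was smaller with LIP or was no longer called, and in 67 it was larger. In 43 genes the fall was smaller with LIP or no longer called, and in 41 it was larger. A rise was called with LIP only in 71 genes and a fall with LIP only in 31. In 30 genes both responses were called in opposite directions, 17 with an interaction above 0 and 13 below.

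**Figure D1:**
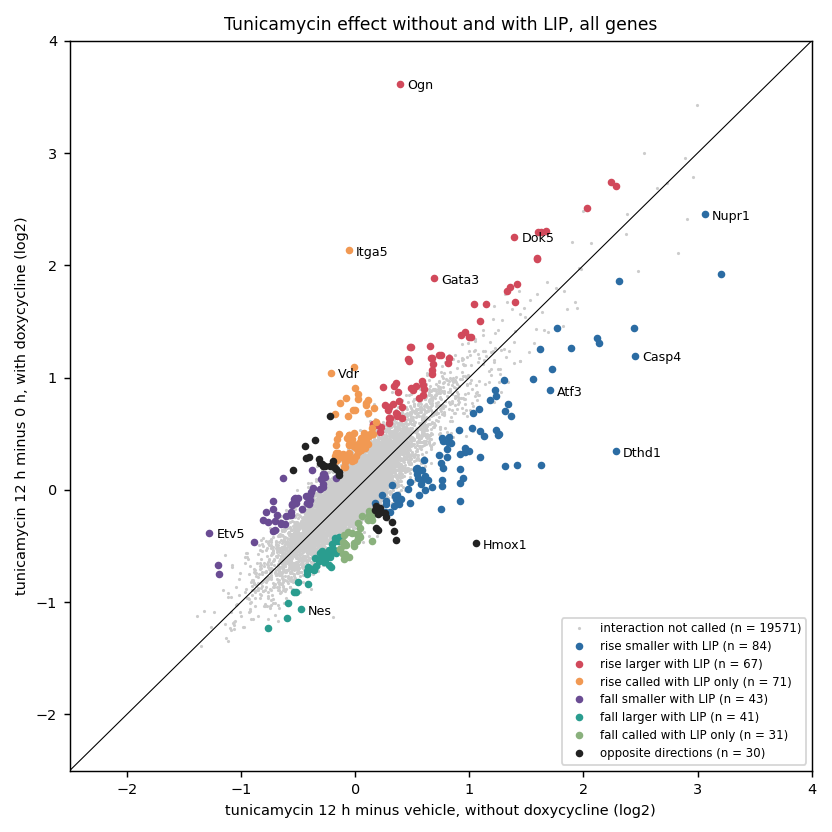
Tunicamycin difference of each gene without doxycycline (x axis, log2) against that with doxycycline (y axis, log2), with the line of equal response. Grey points are the 19571 genes whose interaction was not called and coloured points the 367 members by shape: Ogn, Itga5, Vdr and Gata3 lie far above the line and Dthd1, Hmox1 and Casp4 far below it.

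Seen from the side of LIP, 101 members were higher and 103 lower with doxycycline at 12 h of tunicamycin with no difference called at 0 h. Doxycycline changed 2135 genes at 0 h (10.7%) and 2936 at 12 h of tunicamycin (14.7%). Among the members, 41 rose with doxycycline at both times and more so at 12 h, 26 fell at both and more so at 12 h, and 26 rises and 47 falls called at 0 h were smaller or no longer called at 12 h. In 18 the doxycycline difference was called in opposite directions at the 2 times, and in 5 it was called at neither.

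**Figure D2:**
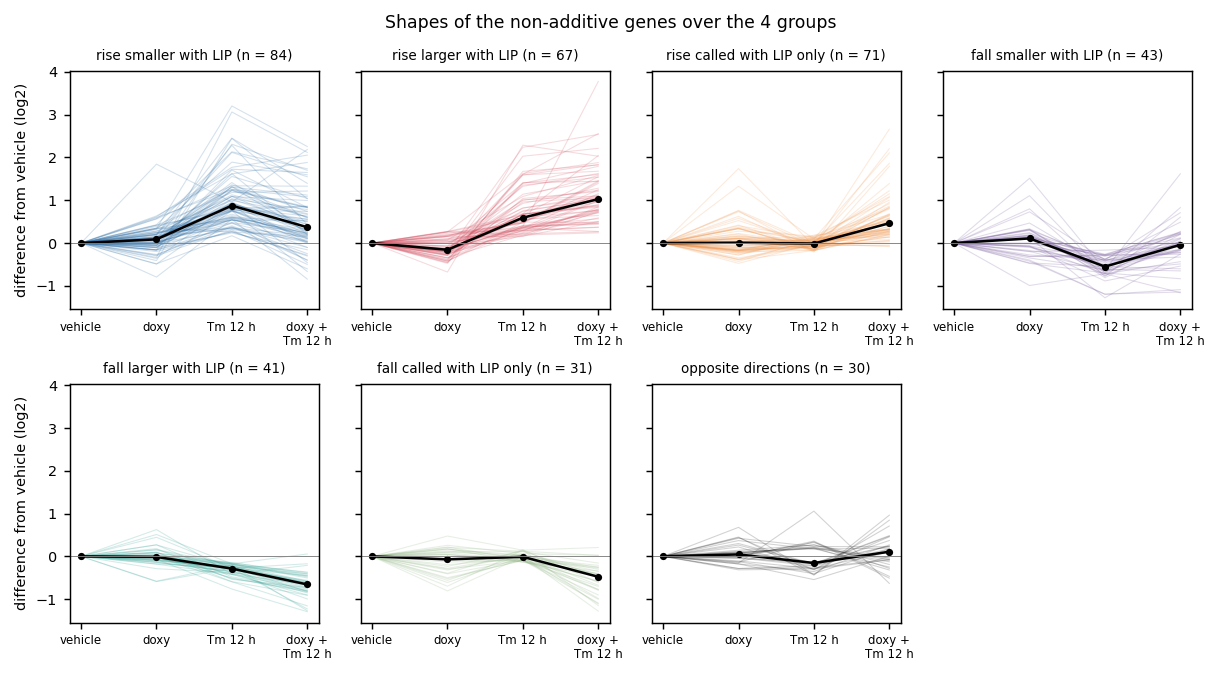
Group means of the members in each of the 7 shapes as log2 differences from vehicle, with 1 thin line per gene and the median as a black line, over vehicle, doxycycline, tunicamycin for 12 h and both. In the 71 genes with a rise called with LIP only, the median lies near 0 in 3 groups and departs in the group with both agents.

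The 5 interactions of at least 1 above 0 were in Ogn, Itga5, Vdr, Gata3 and Ptprd, and in each the arrays with both agents had the highest group mean. Ogn stood at 4.89, 5.09 and 4.84 in vehicle, at 5.03, 5.16 and 5.11 with doxycycline, at 5.23, 5.39 and 5.37 with tunicamycin and at 8.75, 8.52 and 8.88 with both. Only the 3 arrays with both agents lay above the silent-gene percentile of 6.07. Ogn encodes osteoglycin, a small leucine-rich proteoglycan of the extracellular matrix. Its doxycycline difference was 0.16 ± 0.10 (SE, adjusted p = 0.404) at 0 h and 3.39 ± 0.10 (SE, adjusted p = 1.69e-13) at 12 h, the latter a 10.5-fold difference, and the interaction was 3.23 ± 0.15 (SE, adjusted p = 3.45e-10). The other 10 small leucine-rich proteoglycans measured had no interaction past the threshold.

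Itga5 stood at 6.25, 6.35 and 6.58 in vehicle, at 7.02, 6.98 and 6.76 with doxycycline, at 5.998, 6.47 and 6.54 with tunicamycin and at 8.996, 9.08 and 9.08 with both. The arrays with both agents stood apart from all others, and those of vehicle and tunicamycin alone overlapped. Itga5 encodes the α5 subunit of the fibronectin receptor. It rose with doxycycline by 0.53 at 0 h and by 2.72 at 12 h (6.58-fold), while tunicamycin alone gave -0.056 (adjusted p = 0.795). The interaction was 2.19 ± 0.15 (SE, adjusted p = 1.13e-07).

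Among nuclear receptors the interaction passed in 2 of 29 (6.9%, against 1.84% of all genes), both above 0. Vdr stood at 7.34, 7.28 and 7.26 in vehicle, at 8.12, 7.97 and 8.04 with doxycycline, at 7.10, 7.09 and 7.06 with tunicamycin and at 8.86, 9.13 and 9.25 with both. The doxycycline arrays lay above vehicle, those with both lay higher still, and those with tunicamycin alone lay below vehicle without passing (adjusted p = 0.0698). Vdr encodes the vitamin D receptor, and its interaction was 1.25 ± 0.12 (SE, adjusted p = 5.32e-06). Nr1h4 stood at 8.35, 8.28 and 8.32 in vehicle, at 8.45, 8.51 and 8.46 with doxycycline, at 8.29, 8.40 and 8.20 with tunicamycin and at 9.31, 9.07 and 9.16 with both. Nr1h4, the bile acid receptor, thus differed between the doxycycline arrays and vehicle by 0.16 (adjusted p = 0.203) and rose at 12 h by 0.88, with an interaction of 0.73 ± 0.10 (SE, adjusted p = 0.000527).

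Gata3 stood at 6.33, 6.27 and 6.19 in vehicle, at 6.46, 6.34 and 6.46 with doxycycline, at 6.94, 7.05 and 6.86 with tunicamycin and at 8.28, 8.22 and 8.42 with both. Gata3, a zinc-finger transcription factor, rose with tunicamycin alone by 0.69 and with tunicamycin on top of LIP by 1.89, and doxycycline alone gave 0.16 (adjusted p = 0.165). Its interaction was 1.197 ± 0.096 (SE, adjusted p = 7.92e-07). Ptprd stood at 7.52, 7.56 and 7.52 in vehicle, at 8.23, 8.32 and 8.34 with doxycycline, at 7.496, 7.54 and 7.54 with tunicamycin and at 9.43, 9.37 and 9.39 with both. In Ptprd, a receptor tyrosine phosphatase, vehicle and tunicamycin alone overlapped, and both doxycycline groups lay above them. Its interaction was 1.11 ± 0.070 (SE, adjusted p = 3.22e-08).

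Gsta3, Tnfrsf19 and Hoxa11 shared a simpler pattern, with 3 groups close together and the group with both agents higher. Gsta3 stood at 6.16, 6.20 and 6.18 in vehicle, at 6.19, 6.18 and 6.20 with doxycycline, at 6.20, 6.15 and 6.18 with tunicamycin and at 7.14, 7.10 and 7.06 with both. Gsta3 is a glutathione S-transferase, and its interaction of 0.91 ± 0.068 (SE) lay close to its whole doxycycline difference at 12 h, 0.92. Tnfrsf19, a receptor of the TNF receptor family, had an interaction of 0.91 ± 0.085 and Hoxa11, a homeobox factor, one of 0.90 ± 0.083. Jag1, a Notch ligand, was the 1 of 21 Notch pathway genes that passed (4.76%, against 1.84% of all genes). Jag1 stood at 9.20, 9.18 and 9.24 in vehicle, at 9.43, 9.41 and 9.45 with doxycycline, at 9.59, 9.73 and 9.70 with tunicamycin and at 10.49, 10.65 and 10.67 with both. Each single agent raised Jag1 and both together raised it by more than the sum, with an interaction of 0.70 ± 0.078 (SE, adjusted p = 3.92e-05).

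**Figure D3:**
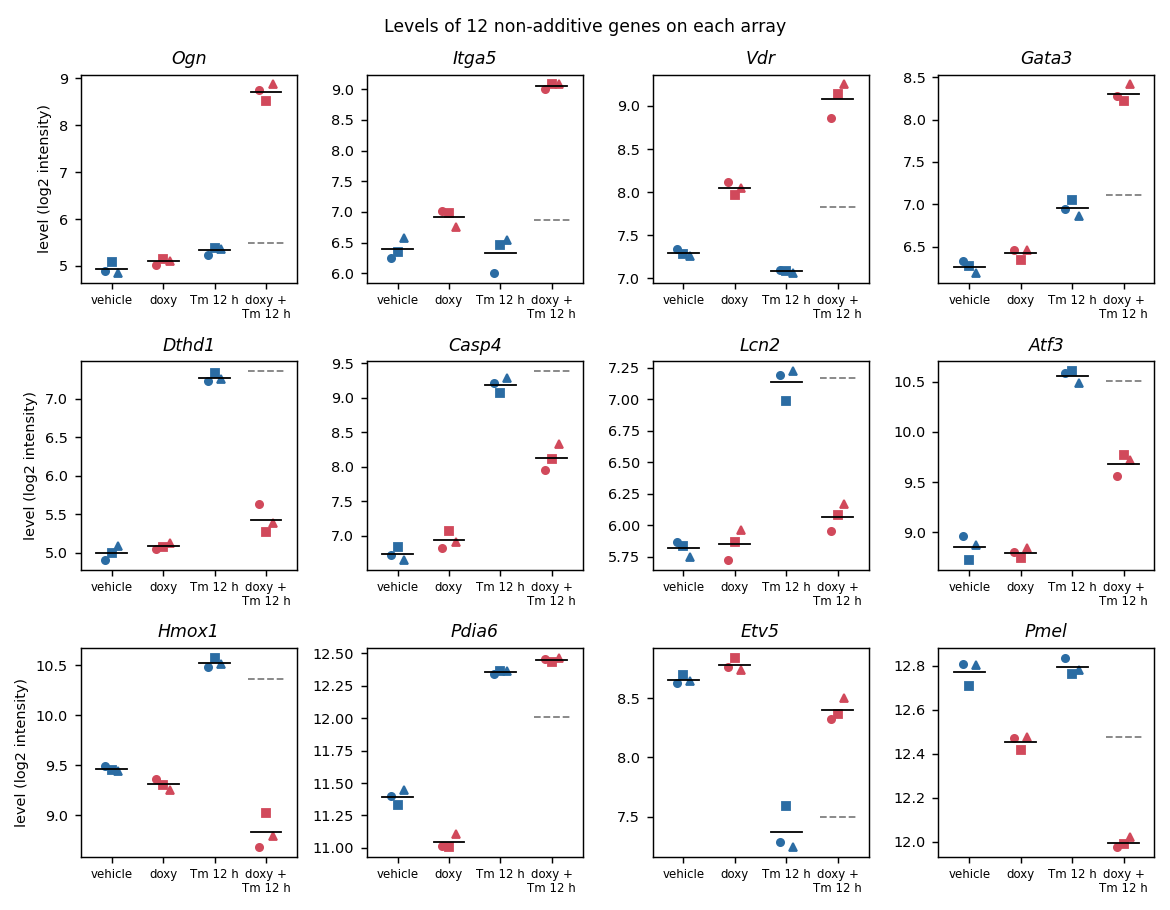
Levels (log2 intensity) of 12 members on each of the 12 arrays, with circles, squares and triangles for experiments 1, 2 and 3, red for doxycycline, blue for none and a black line at each group mean. The dashed grey line over the group with both agents is the level that additivity on the log2 scale would give; Ogn, Itga5, Vdr, Gata3, Pdia6 and Etv5 lie above it and the other 6 below it.

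Integrins and adhesion molecules held 6 members of 27 measured, 4 above 0 and 2 below, around a list median of 0.018. Besides Itga5 the members above 0 were Itga7, a laminin-binding integrin (0.71), Jam2, a junctional adhesion molecule (0.68), and Itgav (0.27). Those below 0 were Itgb5 (-0.41) and Ncam1 (-0.41), both named because the count is small. Itgav and Itgb5 encode the 2 chains of 1 receptor, and their tunicamycin responses without LIP had opposite signs, -0.40 and 0.48. With LIP both were nearer 0, at -0.13 (adjusted p = 0.0457) and 0.070 (adjusted p = 0.431). Of 35 collagens, laminins and other matrix proteins, 2 passed (5.71%, against 1.84% of all genes). These were Postn, which encodes periostin (0.62), and Thbs1, which encodes thrombospondin 1 (0.58). Without experiment 1 or without experiment 3, the count of adhesion genes above 0 was 1.

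Among the named genes that rose with tunicamycin and whose rise was smaller under LIP, without turning to a fall, the largest interactions were in Dthd1, Nat8f5 and Casp4. Dthd1 stood at 4.90, 5.00 and 5.08 in vehicle, at 5.05, 5.08 and 5.12 with doxycycline, at 7.24, 7.34 and 7.26 with tunicamycin and at 5.63, 5.26 and 5.38 with both. Only the arrays with tunicamycin alone lay above 6.07. Dthd1, which encodes a death domain protein, thus rose 4.87-fold without LIP and 1.27-fold with it, on a scale that understates changes from so dim a level. Its interaction was -1.94 ± 0.12 (SE, adjusted p = 2.6e-08).

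Casp4 stood at 6.72, 6.84 and 6.64 in vehicle, at 6.83, 7.07 and 6.91 with doxycycline, at 9.21, 9.07 and 9.28 with tunicamycin and at 7.95, 8.11 and 8.33 with both. All 6 tunicamycin arrays lay above the 6 others, and the 3 with doxycycline lay below the 3 without. Casp4 encodes the inflammatory caspase-11 of the mouse. Its rise was 2.45 without LIP and 1.196 with it, and the interaction was -1.26 ± 0.14 (SE, adjusted p = 4.52e-05). Casp4 was the 1 of 32 BCL2 family, caspase and death receptor genes past the threshold (3.12%, against 1.84% of all genes). Lcn2 stood at 5.87, 5.84 and 5.75 in vehicle, at 5.72, 5.87 and 5.96 with doxycycline, at 7.19, 6.99 and 7.22 with tunicamycin and at 5.95, 6.08 and 6.16 with both. The group with both agents overlapped the doxycycline group, and only tunicamycin alone lay clear of the others. Lcn2 encodes lipocalin 2, a secreted siderophore-binding protein, and its interaction was -1.10 ± 0.11 (SE, adjusted p = 1.29e-05). With Cebpb it was 1 of the 2 members among 26 genes of the C/EBP family and C/EBP-linked inflammatory genes.

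Aldh1l2 stood at 9.43, 9.25 and 9.24 in vehicle, at 8.91, 8.88 and 8.91 with doxycycline, at 11.78, 11.71 and 11.77 with tunicamycin and at 10.25, 10.35 and 10.44 with both. Here doxycycline lay below vehicle, and both tunicamycin groups lay above vehicle. Aldh1l2, a mitochondrial enzyme of folate metabolism, had an interaction of -0.9995 ± 0.10 (SE, adjusted p = 2.33e-05). Ptgir, the prostacyclin receptor, rose by 0.92 with tunicamycin alone and gave -0.098 (adjusted p = 0.322) with LIP. The acetyltransferase genes Nat8f5 and Nat8 had interactions of -1.41 and -1.19. They are close relatives, so their probe sets may read each other's transcripts, and only the tunicamycin arrays of Nat8f5 lay above 6.07.

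The PERK, ATF4 and CHOP targets gave 5 members of 22 measured, 1 above 0 and 4 below, with a list median of -0.19 against -0.016 over all genes. The 4 below were Atf3, Nupr1, Chac1 and Cebpb, which is the gene that doxycycline induces, and the 1 above was Herpud1. In Cebpb and Herpud1 the sign depended on the scale, as given below. A negative interaction was seen in 16 of the 22, called or not, against 55.5% of all genes. Atf3 stood at 8.97, 8.72 and 8.87 in vehicle, at 8.81, 8.75 and 8.84 with doxycycline, at 10.59, 10.61 and 10.49 with tunicamycin and at 9.57, 9.77 and 9.72 with both. Tunicamycin raised Atf3, a stress-induced transcription factor, in both settings, and the groups did not overlap except for vehicle and doxycycline. The rise was 3.27-fold without LIP and 1.85-fold with it, and the interaction was -0.82 ± 0.11 (SE, adjusted p = 0.000535).

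Nupr1 stood at 8.21, 7.99 and 8.20 in vehicle, at 7.84, 7.73 and 7.82 with doxycycline, at 11.24, 11.17 and 11.19 with tunicamycin and at 10.19, 10.16 and 10.41 with both. Nupr1, a stress-induced chromatin protein, was below vehicle in all doxycycline arrays and below tunicamycin alone in all arrays with both, and its interaction was -0.61 ± 0.12 (SE, adjusted p = 0.0124). Chac1, a glutathione-degrading enzyme, had an interaction of -0.45 ± 0.094 (SE, adjusted p = 0.0175). The factors at the head of the branch did not pass: Ddit3, which encodes CHOP, gave 0.065 (adjusted p = 0.89) and Atf4 -0.27 (adjusted p = 0.131). The pseudokinase Trib3, not one of these factors, did not pass either, at -0.50 (adjusted p = 0.0533). Trib3 lies just outside the threshold and passed in 6 of the other settings tried, while Atf4 passed with quantile normalization repeated (adjusted p = 0.0407). Without experiment 1 the count below 0 on this list was 1, and without experiment 3 it was 0.

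Cebpb, the gene that doxycycline induces, was itself non-additive on the log2 scale. Cebpb stood at 9.26, 9.26 and 9.48 in vehicle, at 11.02, 11.27 and 11.24 with doxycycline, at 10.38, 10.23 and 10.28 with tunicamycin and at 11.51, 11.47 and 11.58 with both. The 4 groups did not overlap. Its probe set does not separate LIP from the longer isoforms or the transgene from the cells' own gene. Tunicamycin raised it by 0.96 without doxycycline and by 0.34 with it, an interaction of -0.62 ± 0.10 (SE, adjusted p = 0.00247). On the linear scale, where the group means were 647, 2323, 1257 and 2936 intensity units, the interaction was 1.96 ± 193 units (SD, n = 3), with 115, -221 and 112 in the 3 experiments. In intensity units the tunicamycin increments of Cebpb in the 2 settings thus differed by less than the spread between experiments.

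This check of scale was run on all members, chosen after the data were seen. The sign of the interaction was the same on the linear scale in 363 of the 367 and opposite in 4: Cebpb, Herpud1, Slc6a9 and Lurap1l. Herpud1, an ERAD factor, lay at a lower level with doxycycline at both times, and its linear interaction was -709 ± 70.1 units (SD, n = 3) against 0.42 on the log2 scale. Slc6a9, the glycine transporter, was the 1 of 20 amino acid genes that passed (5%, against 1.84% of all genes). It had a linear interaction of 250.0 ± 246 units (SD, n = 3) against -0.33 on the log2 scale. In Herpud1 and Slc6a9 the linear sign was opposite in all 3 experiments, while in Cebpb and Lurap1l it varied between experiments and gave no direction.

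ER chaperones and co-chaperones gave 7 members of 21 measured, all above 0, a share of 33.3% against the 0.993% of all genes. The list was chosen with earlier results of these data known, so the share only describes it. The 7 were Calr, Hyou1, Dnajb9, Dnajb11, Pdia6, Creld2 and Fkbp14, of which Pdia6, Creld2 and Dnajb9 came from the rule for named genes. Pdia6 stood at 11.40, 11.33 and 11.45 in vehicle, at 11.02, 11.01 and 11.11 with doxycycline, at 12.34, 12.37 and 12.36 with tunicamycin and at 12.46, 12.43 and 12.47 with both. Pdia6 encodes a protein disulfide isomerase. Doxycycline arrays lay below vehicle, and the 2 tunicamycin groups lay close together, so the tunicamycin rise was 0.96 without LIP and 1.41 with it. The interaction was 0.45 ± 0.066 (SE, adjusted p = 0.000899).

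Creld2 stood at 11.44, 11.31 and 11.42 in vehicle, at 11.00, 11.03 and 11.00 with doxycycline, at 13.01, 12.98 and 12.97 with tunicamycin and at 13.11, 13.01 and 13.08 with both. Creld2, an ER-resident protein, showed the same order of groups, with an interaction of 0.47 ± 0.083 (SE, adjusted p = 0.00479). Dnajb9 stood at 9.97, 9.95 and 10.13 in vehicle, at 9.76, 9.94 and 9.74 with doxycycline, at 12.30, 12.21 and 12.26 with tunicamycin and at 12.65, 12.48 and 12.55 with both. In Dnajb9, a co-chaperone, the vehicle and doxycycline arrays did not overlap but differed by only -0.20 (adjusted p = 0.116), and the arrays with both lay above those with tunicamycin alone. Its interaction was 0.50 ± 0.11 (SE, adjusted p = 0.0229). The interactions of the other 4 lay between 0.23 in Calr, a lectin chaperone, and 0.44 in Dnajb11, with Hyou1 at 0.42 and Fkbp14 at 0.41.

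Over the list, doxycycline lowered 12 of 21 and raised 0 at 0 h, and lowered 0 and raised 4 at 12 h. Over all 19938 genes it lowered 1161 and raised 974 at 0 h, and lowered 1550 and raised 1386 at 12 h. The median doxycycline difference of the list was -0.19 at 0 h and 0.044 at 12 h, and its median interaction was 0.21. All 21 rose with tunicamycin in both settings, against 2365 of the 19938 genes without LIP and 2667 with it. Hspa5, which encodes the chaperone BiP, gave an interaction of 0.21 (adjusted p = 0.164) and Xbp1 one of 0.32 (adjusted p = 0.074). Both passed with a variance trend and robust estimation (adjusted p = 0.0218 and 0.0135), and Xbp1 also when arrays were weighted (adjusted p = 0.0228) or when 1 array, tunicamycin for 12 h in experiment 2, was left out (adjusted p = 0.0406). Of the 12 UPR sensors and factors 0 passed in limma at the adjusted threshold and 1 had an unadjusted p under 0.05. The count of 7 was 4 without any 1 of 6 arrays (vehicle, experiments 1 or 3; doxycycline, experiments 1 or 3; tunicamycin 12 h, experiment 2; both agents, experiment 3), and 0 without experiment 1 or without experiment 3.

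Of the 7 chaperone genes, 3 carried a full ER stress element, the site of ATF6 and XBP1, in the 250 bases before their start. The promoters come from RefSeq (GRCm38.p6), where 299 of the 367 members had one. The 3 shown were chosen after their values were seen. The element was not counted separately in the chaperone genes whose interaction was not called. Whether it goes with the interaction, rather than with ER chaperones in general, was therefore not tested. The element, CCAAT, 9 bases of any kind and CCACG, is in capitals and was searched on both strands; in Calr and Creld2 it reads in the other direction, as CGTGG, 9 bases and ATTGG.
Calr (chr8:84846932-84847181, minus strand): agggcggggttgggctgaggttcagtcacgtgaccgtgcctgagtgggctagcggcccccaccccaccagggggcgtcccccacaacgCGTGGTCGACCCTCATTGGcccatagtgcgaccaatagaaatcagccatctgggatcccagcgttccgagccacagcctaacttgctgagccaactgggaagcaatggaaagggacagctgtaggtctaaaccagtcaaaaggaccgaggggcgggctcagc
Creld2 (chr15:88819396-88819645, plus strand): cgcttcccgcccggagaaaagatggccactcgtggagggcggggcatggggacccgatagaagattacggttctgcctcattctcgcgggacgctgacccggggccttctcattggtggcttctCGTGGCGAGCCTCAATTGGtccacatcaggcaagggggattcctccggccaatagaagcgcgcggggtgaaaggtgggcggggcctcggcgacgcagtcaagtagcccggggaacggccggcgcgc
Pdia6 (chr12:17266339-17266588, plus strand): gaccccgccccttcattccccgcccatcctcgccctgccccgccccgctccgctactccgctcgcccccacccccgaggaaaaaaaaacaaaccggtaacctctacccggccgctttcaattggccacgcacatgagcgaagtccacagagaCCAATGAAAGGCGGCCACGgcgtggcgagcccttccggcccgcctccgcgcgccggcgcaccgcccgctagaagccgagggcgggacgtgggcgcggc
The element was found in 3 of the 166 members above 0 with a promoter and in 0 of the 133 below 0. Of the 15614 tested genes with a promoter in the table, 21 held it (0.134%). Each promoter is 300 bases long, and a gene counts if any of its promoters holds the element. A match is a description of letters and no evidence of binding.

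Lists for the neighbouring steps of the secretory route held fewer genes past the threshold. Of 30 N-glycosylation and hexosamine genes 3 passed, all above 0: Alg5, which charges dolichol with glucose (0.46), Pgm3, of hexosamine synthesis (0.35), and Magt1, a subunit of oligosaccharyltransferase (0.29). Alg5 stood at 9.68, 9.65 and 9.77 in vehicle, at 9.56, 9.66 and 9.57 with doxycycline, at 10.62, 10.73 and 10.53 with tunicamycin and at 10.97, 11.03 and 10.94 with both. Tunicamycin raised Alg5 in both settings, and the arrays with both agents lay above all others. Of 31 secretory pathway and translocon genes 2 passed (6.45%, against 1.84% of all genes). These were Sec24d, a coat subunit of ER exit vesicles (0.48), and Spcs3, a signal peptidase subunit (0.40). Called or not, 29 of the 31 had an interaction above 0, while 55.5% of all genes had one below 0. Of 16 ERAD genes 2 passed, Herpud1 and Selenos (0.45). The zinc transporter Slc30a7 of the secretory pathway (0.30) was the 1 of 20 zinc genes that passed (5%, against 1.84% of all genes). The glycosylation count was 1 without any 1 of 6 arrays (vehicle of experiment 1, doxycycline of experiments 1, 2 or 3, tunicamycin 12 h of experiment 3, both agents of experiment 1) and without experiment 2, and 0 without experiment 1 or 3.

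**Figure D4:**
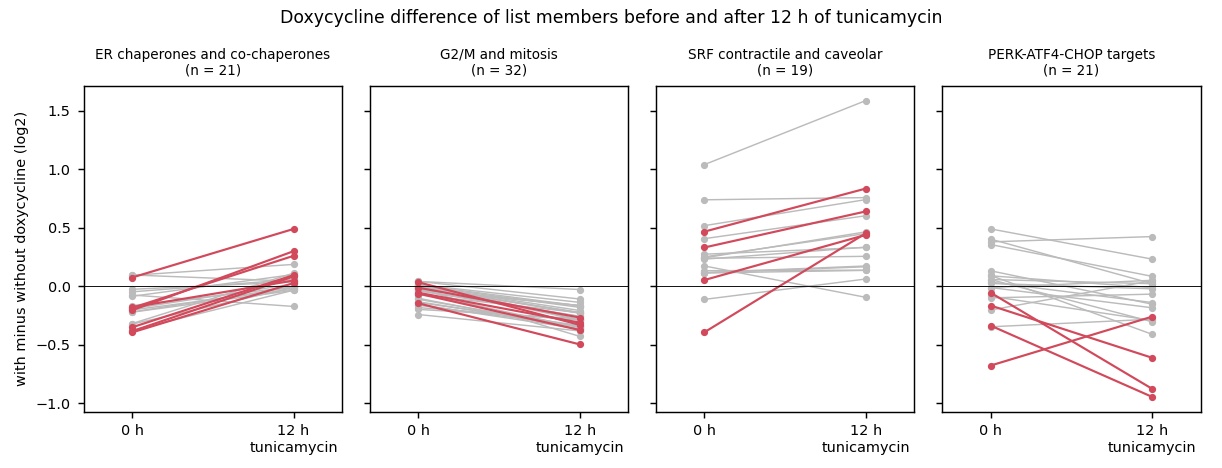
Doxycycline difference (log2) of each member of 4 gene lists at 0 h and after 12 h of tunicamycin, with red lines for genes past the interaction threshold and grey lines for the others; Cebpb, the induced gene, is left out of the PERK, ATF4 and CHOP panel. The red chaperone lines climb, and each of the 32 mitosis lines descends.

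The composite C/EBP-ATF site, searched as TGATGNAAT on both strands, a site of dimers such as those of ATF4 or CHOP with C/EBP proteins, was in 0 of 166 members above 0 and in 2 of 133 below 0 (Nupr1 and Serpinf1; 0.820% of genes). The C/EBP palindrome TTGCGCAA was in 1 member above 0 and 1 below (0.256% of genes), and the looser TTGCNNAA, which includes it, in 24 and 15 (11.3%). The ATF6-type TGACGTGG was in 3 and 2 (0.916%). The cyclic AMP element TGACGTCA was in 5 and 4, or 3.01% on each side, close to its 2.72% of genes.

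Responses in opposite directions were clearest in Hmox1. Hmox1 stood at 9.50, 9.45 and 9.44 in vehicle, at 9.37, 9.31 and 9.25 with doxycycline, at 10.48, 10.57 and 10.51 with tunicamycin and at 8.68, 9.02 and 8.79 with both. The arrays with tunicamycin alone were the highest and those with both the lowest, and none of the 4 groups overlapped another. Hmox1 encodes haem oxygenase 1, which degrades haem in oxidative stress. Tunicamycin raised it 2.08-fold without LIP, while with LIP the difference was -0.48 ± 0.073 (SE, adjusted p = 3.67e-05). The interaction was -1.53 ± 0.10 (SE, adjusted p = 7.15e-08). Of 23 NRF2 and antioxidant genes 2 others passed, both above 0: Cbr2, a carbonyl reductase (0.53), and Abcc4, an export pump (0.41).

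S100a6 stood at 7.81, 7.91 and 7.98 in vehicle, at 8.31, 8.46 and 8.29 with doxycycline, at 7.35, 7.70 and 7.34 with tunicamycin and at 8.54, 8.80 and 8.89 with both. S100a6, a calcium-binding protein, fell with tunicamycin alone by 0.44 and rose with it under LIP by 0.39, with an interaction of 0.83 ± 0.16 (SE, adjusted p = 0.00902). The homeobox gene Dlx6 did the reverse, 0.36 without LIP and -0.44 with it. Of 22 p53 targets 2 passed, and both were of this shape: Btg2, an antiproliferative gene, at -0.31 and 0.24, and Zmat3 at -0.27 and 0.21.

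MAPK feedback and immediate early genes gave 5 members of 35, 4 above 0 and Atf3 below. Etv5 stood at 8.63, 8.69 and 8.65 in vehicle, at 8.76, 8.84 and 8.73 with doxycycline, at 7.29, 7.59 and 7.25 with tunicamycin and at 8.32, 8.37 and 8.50 with both. Etv5, an ETS factor downstream of MAP kinases, fell with tunicamycin by 1.28 without LIP and by 0.38 with it, and only the tunicamycin-alone group stood clear of the others by a wide gap. Its interaction was 0.90 ± 0.12 (SE, adjusted p = 0.000439). The feedback inhibitors Spry2 (0.80), Spred2 (0.42) and Spred1 (0.31) were the other members. Spry2 stood at 8.05, 8.23 and 8.02 with tunicamycin alone and at 8.77, 8.84 and 8.56 with both, on either side of vehicle at 8.48, 8.42 and 8.46. Without experiment 1 the count above 0 was 1, and without experiment 3 it was 0.

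Contractile and caveolar genes of the SRF type gave 4 members of 19, all above 0, with a list median of 0.17. Cav1 stood at 8.14, 8.07 and 8.12 in vehicle, at 7.74, 7.69 and 7.72 with doxycycline, at 7.96, 8.02 and 7.84 with tunicamycin and at 8.21, 8.42 and 8.55 with both. Cav1, the coat protein of caveolae, was lower with doxycycline than in vehicle and highest with both agents. Its doxycycline difference was -0.39 ± 0.077 (SE, adjusted p = 0.00237) at 0 h and 0.45 ± 0.077 (SE, adjusted p = 0.000357) at 12 h, and the interaction was 0.85 ± 0.11 (SE, adjusted p = 0.000239). Tagln, an actin-binding protein, had an interaction of 0.39, Vcl, which encodes vinculin, 0.37, and Actn1, an actin crosslinker, 0.31. The count was 1 without the array with both agents of experiment 3 and 2 without any 1 of 5 others (vehicle of experiments 2 or 3, doxycycline of experiments 1 or 2, tunicamycin 12 h of experiment 1). Without experiment 1 or 2 it was 1 and without experiment 3 it was 0.

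Other falls that were smaller with LIP included 3 secreted or cytoskeletal genes. Thbs1 stood at 9.78, 9.77 and 9.84 in vehicle, at 10.56, 10.61 and 10.62 with doxycycline, at 8.98, 9.19 and 8.88 with tunicamycin and at 10.34, 10.49 and 10.38 with both. Doxycycline raised Thbs1 at 0 h by 0.80 and at 12 h by 1.38, and tunicamycin alone took it below vehicle. Fstl1, a secreted glycoprotein, fell with tunicamycin alone by 0.63, and with LIP the difference was 0.10 (adjusted p = 0.54). Tmsb4x, which binds actin monomers, gave -0.72 without LIP and -0.095 (adjusted p = 0.605) with it. Of 41 axon guidance genes 2 passed (4.88%, against 1.84% of all genes). These were the semaphorin Sema3d (0.41) and the ephrin receptor Epha2 (0.41, lost with the experiment as a replicate block at adjusted p = 0.0675).

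The interaction was below 0 in the mitotic genes that passed. Of 32 measured, 5 passed, all below 0 (Cdc25c, Espl1, Plk1, Ccna2 and Ect2), and all 32 had an interaction below 0, against 55.5% of all genes. Plk1 stood at 12.05, 12.07 and 12.10 in vehicle, at 12.05, 11.98 and 12.01 with doxycycline, at 11.76, 11.77 and 11.74 with tunicamycin and at 11.34, 11.42 and 11.38 with both. Plk1 encodes a mitotic kinase. The vehicle and doxycycline arrays lay close together, tunicamycin alone lay lower, and the arrays with both were the lowest. The interaction was -0.31 ± 0.067 (SE, adjusted p = 0.0189). Espl1, which encodes separase, had an interaction of -0.35 and Cdc25c, the phosphatase of mitotic entry, -0.36. The other 2 were the cyclin Ccna2 (-0.26) and the cytokinesis factor Ect2 (-0.26).

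On this list doxycycline lowered 1 of 32 at 0 h and 29 at 12 h, with median differences of -0.032 and -0.28. Over all 19938 genes it lowered 1161 at 0 h and 1550 at 12 h. The median tunicamycin response of the list was -0.29 without LIP and -0.51 with it. The number of members was 1 without the vehicle array of experiment 1 or the array with both of experiment 3, 2 without the doxycycline array of experiment 1 or 3, and 3 without the vehicle array of experiment 2. It was 0 without experiment 1 or 3 and 1 without experiment 2, and it ranged from 3 to 15 over the other settings. The list median stayed between -0.23 and -0.18 in all of them. Of 31 G1/S and replication genes 1 passed (3.23%, against 1.84% of all genes). This was Cdk2 (-0.31), whose doxycycline difference was -0.50 at 0 h and -0.81 at 12 h.

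The 5 pigment cell genes that passed were all below 0. Of 14 melanocyte lineage factors and receptors 3 passed, and of 20 pigment synthesis and melanosome genes 2 passed. Pmel stood at 12.81, 12.71 and 12.80 in vehicle, at 12.47, 12.42 and 12.48 with doxycycline, at 12.84, 12.76 and 12.78 with tunicamycin and at 11.98, 11.99 and 12.02 with both. Pmel encodes the fibril protein of melanosomes. Vehicle and tunicamycin alone overlapped, doxycycline lay below them and the arrays with both were the lowest, with an interaction of -0.48 ± 0.074 (SE, adjusted p = 0.00154). Mlph, which tethers melanosomes to myosin, gave -0.51 and its partner, the GTPase Rab27a, -0.49.

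Erbb3 stood at 10.46, 10.47 and 10.44 in vehicle, at 9.90, 9.83 and 9.91 with doxycycline, at 10.25, 10.40 and 10.11 with tunicamycin and at 9.23, 9.20 and 9.14 with both. Erbb3, a receptor for neuregulins, fell with tunicamycin by 0.21 without LIP and by 0.69 with it, an interaction of -0.48 ± 0.092 (SE, adjusted p = 0.00824). Sox10, a transcription factor of the neural crest lineage, had an interaction of -0.32 ± 0.069 (SE, adjusted p = 0.0179). Without the vehicle, tunicamycin 12 h or both-agent array of experiment 3, or the doxycycline array of experiment 1, the count of lineage factors was 1, and without experiment 1 or 3 it was 0.

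Of 25 cholesterol and fatty acid synthesis genes 3 passed, all below 0 and all of cholesterol synthesis: Msmo1 (-0.39), Nsdhl (-0.37) and Fdft1 (-0.34). Msmo1 stood at 11.14, 11.07 and 11.08 in vehicle, at 11.22, 11.15 and 11.16 with doxycycline, at 10.99, 10.90 and 10.90 with tunicamycin and at 10.74, 10.53 and 10.58 with both. The arrays with both agents were the lowest in Msmo1, a sterol oxidase, and doxycycline alone was close to vehicle, with a difference of 0.079 (adjusted p = 0.452). Without experiment 1 or 3 the count was 0 and without experiment 2 it was 1. Nes, an intermediate filament protein, had an interaction of -0.59 and Ankle1, a nuclease, one of -0.55, and both fell more with LIP. A fall was called with LIP only in Ano3, a scramblase-family protein (interaction -0.60), Sorbs3, an adhesion adaptor (-0.55), and Rnf144a, a ubiquitin ligase (-0.52). The call of Ano3 was lost with its probe sets averaged (adjusted p = 0.0681) and without experiment 1 (adjusted p = 0.223). In Nes the array with both agents of experiment 2, at 9.80, lay close to the tunicamycin arrays at 9.85, 9.91 and 9.81, and those of experiments 1 and 3 lay lower.

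**Figure D5:**
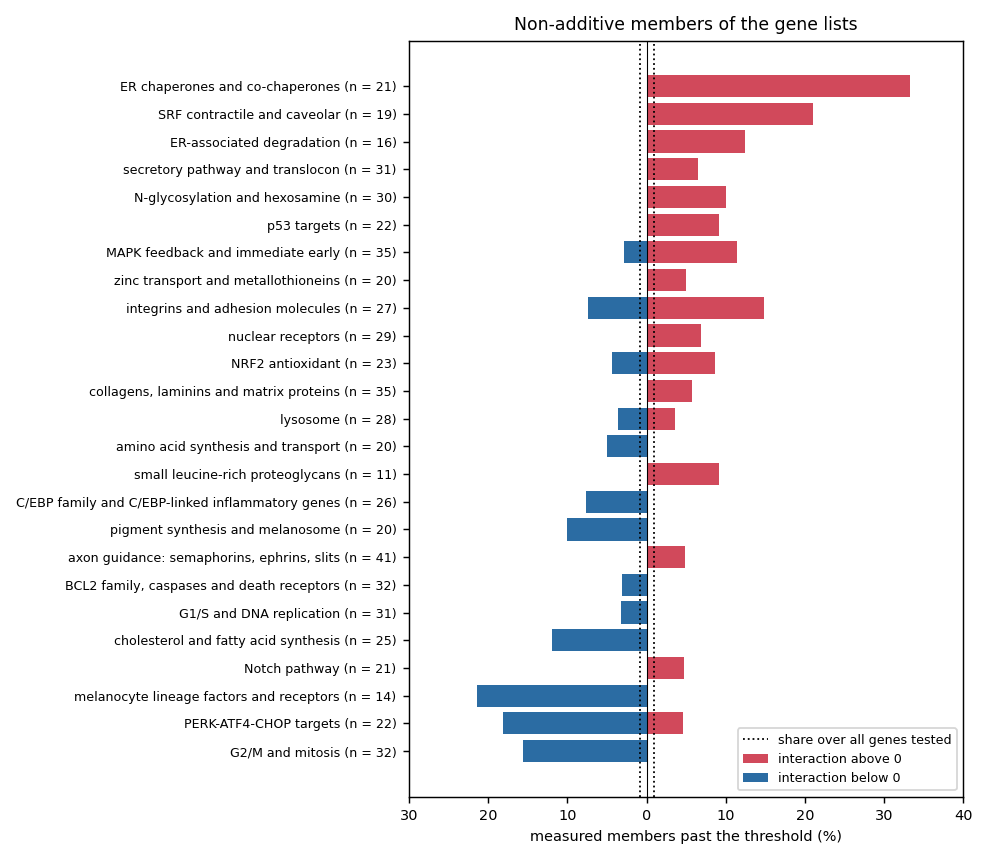
Percent of the measured members of each gene list past the interaction threshold, above 0 to the right in red and below 0 to the left in blue, for the 25 lists with at least 1, ordered by median interaction. Dotted lines mark the shares over all genes, 0.993% and 0.848%. ER chaperones reach 33.3% on the right and melanocyte factors 21.4% on the left. The lists were chosen with earlier results of these data known.

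Of the 36 gene lists, 11 held 0 members past limma's adjusted threshold: UPR sensors and factors, aminoacyl-tRNA synthetases, cytosolic heat shock, YAP-TEAD targets, TGF-beta and ID genes, interferon-stimulated genes, hypoxia and glycolysis, autophagy, iron handling, the Wnt pathway, and growth factor ligands and cytokines. Of their 247 measured genes 30 had an unadjusted p under 0.05, a share close to the 2461 of 19938 over all genes tested. The 30 included 6 of 17 YAP-TEAD targets and 6 of 25 interferon-stimulated genes. Aminoacyl-tRNA synthetases responded to tunicamycin in 13 of 17 cases with and without LIP, against 29.9% and 27.7% of all genes. Their median interaction was -0.063. The smallest adjusted p among them was that of Farsb, at 0.215. Of 28 lysosomal genes 2 passed (7.14%, against 1.84% of all genes). These were Npc2, a cholesterol carrier (0.34), and the channel Mcoln1 (-0.40). Dok5, an adaptor of receptor tyrosine kinases on no list, was among the rises that were larger with LIP: doxycycline gave -0.46 at 0 h and 0.40 at 12 h, with an interaction of 0.86 ± 0.12 (SE, adjusted p = 0.000614).

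At 5 h of tunicamycin the same interaction passed in 6 genes (0.0301%), all above 0 and all members at 12 h: Cav1, Osgin2, Pwwp3b, Rnd3, Socs2 and Tagln. At an unadjusted p under 0.05 there were 1651. The 5 h and 12 h interactions share the vehicle and doxycycline arrays, so their values are given side by side only. Cav1 gave 0.79 at 5 h and 0.85 at 12 h, and Tagln 0.52 and 0.39. The genes with the largest 12 h interactions stood lower at 5 h: Ogn at 0.40 (adjusted p = 0.496), Itga5 at 0.72 (adjusted p = 0.149), Vdr at 0.60 (adjusted p = 0.0963) and Gata3 at 0.25 (adjusted p = 0.498). Below 0, Dthd1 gave -0.14 (adjusted p = 0.767), Hmox1 -0.10 (adjusted p = 0.807) and Casp4 -0.16 (adjusted p = 0.78) at 5 h. Whether the 2 times differ was not tested.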

How the data were processed

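Log2 intensities of 35557 probe sets on 18 arrays were deposited by the authors, summarised by RMA with Partek, per the submitters' processing notes; versions, settings and a genome build are not given in the sources used here. RMA understates changes of dim genes. Probe sets with 1 symbol (21789) were kept, the brightest per gene, leaving 19938 genes. limma 3.58.1 (R 4.3.3) fitted 6 group means over 18 arrays (12 residual degrees of freedom) with Benjamini-Hochberg adjustment over all genes; the procedure was tested on simulated data. The members and the 36 gene lists were chosen with earlier results of these data known. Named genes were the 8 largest interactions past the threshold each way with 1 sign in all 3 experiments, the 3 largest of each shape, up to 3 called members per list (or the smallest p) and 11 set genes. Left out were 2947 predicted or clone names, small RNAs, olfactory and vomeronasal receptor genes and histone genes. The series design names 3 independent experiments, each with every group; replicate numbers 1 to 3 were read as those experiments, which the labels do not state. Within-group r was 0.997 to 0.999. Alternatives were the replicate block, other scalings, filters and spread estimates, and leaving out arrays and experiments.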

Additional observations from a re-analysis of the deposited data

Results flagged for a closer look

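In 6 named genes the tunicamycin response was called in opposite directions without and with LIP, and the interaction tests that difference. The interactions were -1.53 in Hmox1, 0.83 in S100a6, -0.80 in Dlx6, 0.80 in Spry2, 0.54 in Btg2 and 0.48 in Zmat3. Of the 6, Hmox1 kept its call in all settings tried, while the other 5 lost it without experiment 1 and also without experiment 3. The 4 groups hold 3 arrays each, too few for a check of single arrays that stand apart.

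Among 13768 probe sets with several symbols or none, which entered no comparison above, 13 passed the interaction threshold (0.0944%), 7 above 0 and 6 below.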

How the results depend on the processing

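The count of 367 became 401 with the experiment as a replicate block (341 genes shared), 375 with only the 12 arrays of the 4 groups, 311 with array medians set equal, 460 with quantile normalization repeated, 462 without the dimmest 30% of genes and 364 with each gene's probe sets averaged. It moved by over 1.5 times with a variance trend and robust estimation, to 567 (318 above 0, 249 below), and with array weights, to 777 (442 and 335). With an interaction of at least 1 required it was 13 (5 and 8). Leaving out 1 array or experiment gave 39 to 472 members, 14 to 227 above 0 and 25 to 245 below. Of the shapes, larger falls with LIP numbered 25 with medians equal and 63 with quantile normalization. Of the 72 called named genes, Epha2 lost its call with the block, with medians equal, with quantile normalization and with the variance trend. Equal medians also ended the calls of Selenos, Magt1, Nsdhl, Rab27a and Vcl, the 12 arrays alone those of Magt1, Nsdhl and Vcl, and averaged probe sets that of Ano3. The arrays share only a number: deviations of same-numbered arrays correlated at a median of 0.0048 (-0.22 to 0.21, 3 of 18 pairs over 0.1), and 3 of 12 arrays correlated best with one of their own number. No named gene turned in sign in these settings. On the linear intensity scale, added after the data were seen, 3 did: Cebpb (1.96 units), Herpud1 (-709) and Slc6a9 (250.0). RMA's background limits changes of the 19 members with a group mean below 6.07.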

Other observations

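Some members on no gene list had interactions above 0.5 in size, and those named here were picked after their values were seen. Fkbp11, a prolyl isomerase of the ER (0.63 ± 0.12, SE), and Pdia5, a disulfide isomerase of the ER (0.61 ± 0.081), were rises with tunicamycin that were larger with LIP, as in the 7 chaperone members. Fkbp11 stood at 7.10, 7.08 and 7.25 in vehicle, at 6.57, 6.79 and 6.64 with doxycycline, at 8.85, 8.82 and 8.77 with tunicamycin and at 8.86, 8.92 and 9.13 with both. Wwtr1, which encodes the co-activator TAZ (-0.68 ± 0.083), Stard5, a sterol carrier of the cytosol (-0.77 ± 0.083), Tgfbr3, a TGF-beta co-receptor (-0.70 ± 0.10), and Pink1, a mitochondrial kinase (-0.60 ± 0.084), were rises that were smaller with LIP. Tunicamycin gave Wwtr1 a difference of 0.76 without LIP and 0.084 (adjusted p = 0.354) with it. In the sulfite oxidase gene Suox tunicamycin gave 0.026 (adjusted p = 0.853) without LIP and 0.85 (adjusted p = 9.97e-09) with it, and doxycycline alone gave 0.37 (adjusted p = 0.00135). The kinase gene Atm went from -0.54 without LIP to 0.18 with it.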
